A study of Homo sapiens with 3 samples.

Results

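Cycling cells of chambered cardiac organoids (CCOs) at day 8 (D8) were selected by the transcripts of 6 genes of the G2 and M phases. CCOs are aggregates in which cardiovascular progenitors and cardiomyocytes (CMs) of the H7 human embryonic stem cell line organise around a cavity. The study dissociated CCOs at D8, at D14 and at D21 and made 1 Chromium 3' droplet library on each day, counting mRNA molecules by their unique molecular identifiers (UMIs). The D8 sample was taken just after aggregation in Matrigel, when cardiosphere growth medium had replaced the differentiation medium. The D14 sample was taken at the end of the growth medium period, and the D21 sample after maturation in RPMI with B27 in spinner flasks. The growth medium held thrombin, cardiotrophin, EGF, FGF2, WNT3A and EDN1. None of the 3 samples belonged to the study's EDN1 hypertrophy experiment, which used older CCOs. D8 cells with more than 2000 and fewer than 7500 detected genes and under 10% of UMIs from mitochondrial genes were kept, and a kept cell was called cycling when MKI67, TOP2A, CENPF, TPX2, NUSAP1 and UBE2C together had at least 8 of every 10000 of its UMIs. This rule called 384 of 2657 D8 cells cycling (14.5%, exact binomial 95% interval 13.1 to 15.8). The 3 libraries together held 8188 kept cells. Since D8 is a single library of 1 cell line, cells are not replicates, no test was made, and every interval covers counting error only.

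A cell that divides copies its DNA in S phase with the MCM helicase, the sliding clamp PCNA and enzymes that make nucleotides, then condenses its chromosomes in G2 and separates them in M phase with a spindle. CDK1 with cyclins A and B drives entry into mitosis, and the anaphase promoting complex ends it by marking cyclin B and securin for destruction. Early cardiac progenitors divide quickly, while CMs slow their division as they assemble sarcomeres, which makes the lineage of the dividing cells in a young cardiac organoid a natural question.

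The score on which the selection rests ran from 8.00 to 117 UMIs per 10000 in the cycling cells, with a median of 19.7, against a median of 0.720 in the 2273 other D8 cells. The levels of the 6 genes are given as a description only, because they chose the cells. MKI67, the Ki-67 antigen of dividing nuclei, had 277 counts per 1000000 UMIs (CPM; exact Poisson 95% interval 266 to 288) in cycling cells and 8.71 CPM (7.79 to 9.71) in other cells. TOP2A, the topoisomerase that untangles sister chromatids, had 581 and 18.2 CPM. CENPF, a kinetochore protein of late G2, had 518 and 33.1 CPM. Most cycling cells had all 6 genes, as 304 of the 384 had a UMI of each and 58 had 5 of them. TPX2 and NUSAP1, which organise spindle microtubules, had 487 and 288 CPM in cycling cells, and UBE2C, the ubiquitin-conjugating enzyme of the anaphase promoting complex, had 634 CPM.

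**Figure D1:**
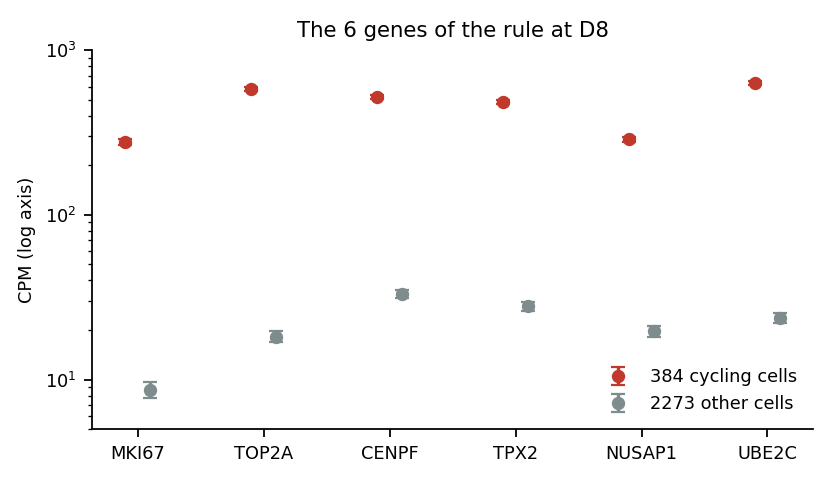
Levels of the 6 selecting genes (x axis) in CPM (log y axis) in 384 cycling and 2273 other D8 cells, with points at the pooled level and bars for exact Poisson 95% intervals. Each gene lies far apart in the groups by construction, for example MKI67 at 277 against 8.71 CPM and CENPF at 518 against 33.1 CPM.

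Cells near the limit form a continuum. The 5 cells just below it scored 7.70 to 7.83 and the 5 just above it 8.00 to 8.25, with 73 cells between 6 and 8 and 46 between 8 and 10. Cycling cells were larger libraries than the others, with a median of 22750.5 UMIs and 4756.5 genes against 14628 UMIs and 3744 genes. After every cell was thinned to 4000 UMIs, MKI67 was found in 58.9% of cycling and 2.51% of other cells, where the whole libraries gave 91.7% and 9.15%. The median mitochondrial share was 2.38% in cycling and 2.06% in other cells, and the median doublet score was 0.0732 and 0.0518. Of the barcode sequences, 136 occurred in more than 1 library, and 8 cycling cells carried such a barcode.

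The start regions of genes that act in G2 and M often carry a cell cycle gene homology region (CHR), read by the MuvB complexes, beside CCAAT boxes bound by NF-Y, while genes of S phase more often carry E2F sites. The sequences shown are RefSeq promoter stretches of GRCh38.p14 that end at the base before the listed transcription start. They were chosen to set selecting genes and mitotic regulators beside replication genes. The letters are 5′ to 3′ on the strand of the gene, and capitals mark TTTGAA or TTTAAA (CHR), CCAAT, and TTTCCCGC, TTTGGCGC or TTTCGCGC (E2F), on either strand, so that ATTGG and TTCAAA and GCGGGAAA are matches to the reverse strand. Adjoining matches can share letters, as in MKI67.
MKI67, the Ki-67 gene, at chr10:128126424-128126553 on the minus strand: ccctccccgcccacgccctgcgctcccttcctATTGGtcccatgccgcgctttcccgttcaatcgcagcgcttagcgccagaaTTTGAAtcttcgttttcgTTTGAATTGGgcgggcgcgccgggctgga
TOP2A at chr17:40417897-40418146 on the minus strand: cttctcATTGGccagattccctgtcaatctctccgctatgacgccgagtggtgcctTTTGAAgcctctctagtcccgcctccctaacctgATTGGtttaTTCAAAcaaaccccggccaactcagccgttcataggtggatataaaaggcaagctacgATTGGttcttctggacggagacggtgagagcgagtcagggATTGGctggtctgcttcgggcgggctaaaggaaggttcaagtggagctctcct
CENPF at chr1:214603065-214603194 on the plus strand: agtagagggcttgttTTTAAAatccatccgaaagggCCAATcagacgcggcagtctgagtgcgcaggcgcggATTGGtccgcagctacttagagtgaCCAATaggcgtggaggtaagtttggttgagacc
NUSAP1 at chr15:41332681-41332880 on the plus strand: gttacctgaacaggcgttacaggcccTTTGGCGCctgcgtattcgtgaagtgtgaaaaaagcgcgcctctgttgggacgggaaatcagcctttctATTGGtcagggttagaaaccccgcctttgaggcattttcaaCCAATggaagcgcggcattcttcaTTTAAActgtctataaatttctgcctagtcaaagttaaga
PLK1, the polo kinase of mitotic entry, at chr16:23678759-23678888 on the plus strand: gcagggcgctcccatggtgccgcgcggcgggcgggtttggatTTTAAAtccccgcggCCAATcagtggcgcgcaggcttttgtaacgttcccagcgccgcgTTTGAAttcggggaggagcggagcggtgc
CDC20, the activator of the anaphase promoting complex, at chr1:43358851-43358980 on the plus strand: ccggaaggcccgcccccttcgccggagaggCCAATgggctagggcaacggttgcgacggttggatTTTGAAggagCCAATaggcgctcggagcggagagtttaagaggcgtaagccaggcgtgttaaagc
CCNB1, cyclin B, at chr5:69167020-69167149 on the plus strand: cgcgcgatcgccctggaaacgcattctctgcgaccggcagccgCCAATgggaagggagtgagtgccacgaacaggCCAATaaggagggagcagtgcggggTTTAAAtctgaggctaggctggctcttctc
MCM6, a helicase subunit, at chr2:135876444-135876613 on the minus strand: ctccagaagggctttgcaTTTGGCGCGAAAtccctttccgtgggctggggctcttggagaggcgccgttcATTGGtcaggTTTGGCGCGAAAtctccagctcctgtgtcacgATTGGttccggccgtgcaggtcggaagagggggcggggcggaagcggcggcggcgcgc
PCNA at chr20:5126623-5126752 on the minus strand: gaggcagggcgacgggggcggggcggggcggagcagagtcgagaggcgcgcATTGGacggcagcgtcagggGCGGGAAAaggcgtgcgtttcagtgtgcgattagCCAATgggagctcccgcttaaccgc
TYMS, thymidylate synthase, at chr18:657523-657652 on the plus strand: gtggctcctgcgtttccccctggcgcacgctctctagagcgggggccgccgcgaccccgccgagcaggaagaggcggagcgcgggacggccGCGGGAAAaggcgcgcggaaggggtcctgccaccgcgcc

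CHR letters stood in the 250 bases before the start of all 4 selecting genes with an entry in the promoter table (MKI67, TOP2A, CENPF and NUSAP1), each together with a CCAAT box. Over all 27305 genes of the table, 22.1% had CHR letters, 33.0% a CCAAT box, 7.85% both, and 2.38% E2F letters. The spindle and cytokinesis list, which holds motors and microtubule proteins, had CHR letters in 21 of 36 genes (58.3%), and the mitotic cyclins and kinases had them in 10 of 19 (52.6%). The replication list had CHR letters in 8 of 48 genes (16.7%), a CCAAT box in 28 (58.3%) and E2F letters in 13 (27.1%), whereas E2F letters were found in 0 of 19 mitotic cyclins and kinases and in 2 of 36 spindle genes. All 12 histone genes with an entry had a CCAAT box. In the 100 bases before the start, CHR letters stood in 2 of the 4 selecting genes and 14 of 36 spindle genes (38.9%). The mitotic cyclins and kinases had them in 8 of 19 (42.1%), the replication list in 4 of 48 and all genes in 8.33%. Lists outside the cycle varied at 250 bases, from 3 of 5 WNT targets and 3 of 8 progenitor genes to 0 of 10 cardiac transcription factors. These are letter matches in fixed windows, with no measurement of binding.

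The lineage of the cycling cells was examined first by clustering all D8 cells on variable genes from which every cell cycle list had been removed. Of 12 clusters, 1 was led by cycle genes all the same, among them TOP2A, MKI67 and GTSE1, and it took 163 of the 384 cycling cells (42.4%). It held 47 other cells, of which 44 had high replication transcripts, with a median of 51.3 UMIs per 10000 from the replication list. In the clusters named from lineage markers, 66 of 257 foregut endoderm-like cells were cycling (25.7%, 20.5 to 31.5), as were 55 of 203 surface ectoderm or pluripotent-like cells (27.1%, 21.1 to 33.8), 18 of 571 CM-like cells (3.15%, 1.88 to 4.94) and 3 of 48 endothelial-like cells. Foregut endoderm-like cells made up 17.2% of the cycling and 8.40% of the other cells, and CM-like cells 4.69% of the cycling and 24.3% of the other cells.

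The cycle-led cluster hides the lineage of its cells, so the other cells were also clustered alone, and each cycling cell was given to the cluster that held most of its 20 nearest other cells. Clusters are called here by their 2 leading genes, and a name is given where the markers allowed it. The median cycling cell had 18 of 20 neighbours in its cluster, equal to the median of the other cells, and 34 cycling cells (8.85%) had 10 or fewer. Of the 163 cells of the cycle-led cluster, 102 went to the EBF2/PGF cluster, 24 to RGS4/TTN and 23 to COL3A1/HOXB4. By cluster, the median of the cycling cells was 20 of 20 in PRSS1/TTR, 18 in EBF2/PGF, 13 in COL3A1/HOXB4 and 12 in GPI/NDUFA4L2. Other cells were returned to their own cluster in 95.1% of cases by the same procedure. Because those cells had also made the clusters, that share cannot check the assignment of cycling cells.

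The EBF2/PGF cluster held 131 of the 384 cycling cells (34.1%) against 18.9% of the other cells, and 131 of its 560 cells were cycling (23.4%, 19.9 to 27.1). It met the rule for a cardiac progenitor-like name through 3 markers, among them ISL1 and FGF8 of second heart field progenitors, although its counterpart in the clustering of all cells passed only 2 of the 3 markers required and stayed unnamed there. That counterpart, from which the cycle-led cluster is separate, held 28 of the 384 cycling cells (7.29%) against 19.4% of the other cells, and 5.97% of its 469 cells were cycling, so the direction for EBF2/PGF depends on the clustering. The PRSS1/TTR cluster, foregut endoderm-like through genes such as FOXA2, TTR and APOA1, had 65 of 254 cells cycling (25.6%, 20.3 to 31.4). In the SFRP2/POU5F1 cluster, surface ectoderm or pluripotent-like through SOX2 and TFAP2A among others, 55 of 204 cells were cycling (27.0%, 21.0 to 33.6). The intervals of these 3 clusters overlap.

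By the neighbour assignment, CM-like cells cycled less often, and unequally among their clusters. The RGS4/TTN cluster, which passed 7 CM markers, had 42 of 475 cells cycling (8.84%, 6.45 to 11.8). The MYL7/MYL3 cluster, led by genes of the contractile apparatus, had 2 of 164 (1.22%, 0.148 to 4.34). These 2 intervals do not overlap, and both lie below those of the EBF2/PGF, PRSS1/TTR and SFRP2/POU5F1 clusters. In the clustering of all cells the counterparts of RGS4/TTN and MYL7/MYL3 had 3.67% (2.11 to 5.89) and 1.48% (0.180 to 5.25) cycling, which overlap. The first also overlaps the EBF2 cluster there (5.97%, 4.00 to 8.51). Together the CM-like clusters of the neighbour assignment had 44 of 639 cells cycling (6.89%, 5.05 to 9.13), where the clustering of all cells gave 3.15%. In the MYL7/MYL3 cluster the 162 other cells had 5969 CPM of MYL7, the atrial myosin light chain, against 886 CPM in the other cells of RGS4/TTN.

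The unnamed clusters lay between MYL7/MYL3 and EBF2/PGF. COL3A1/HOXB4 had 37 of 313 cells cycling (11.8%), GPI/NDUFA4L2 15 of 197 (7.61%), NMB/TMEM52 18 of 200 (9%), DIO3/CAV1 9 of 129 (6.98%) and SYP/CTGF 7 of 112 (6.25%). In the clustering of all cells, the clusters led by COL3A1 and by GPI had lower shares, 14 of 309 (4.53%) and 2 of 150 (1.33%). The counterparts with NMB, DIO3 and SYP among their leading genes had 7.69%, 9.68% and 6.48% there. Of the 49 cells of the GNG11/PLVAP cluster, endothelial-like through PLVAP, CD34 and ESAM, 3 were cycling. Those 3 cells had a median doublet score of 0.215 against 0.0595 in the other 46. Without the 5% of D8 cells with the highest doublet scores, 0 of 41 cells of GNG11/PLVAP were cycling, which allows a share of up to 8.60% by the exact interval. The same step left 127 of 543 in EBF2/PGF (23.4%), 59 of 239 in PRSS1/TTR (24.7%), 54 of 197 in SFRP2/POU5F1 (27.4%) and 36 of 449 in RGS4/TTN (8.02%). In RGS4/TTN the median doublet score was 0.110 in cycling and 0.0547 in other cells, and the part of doublets in its values was not tested further.

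**Figure D2:**
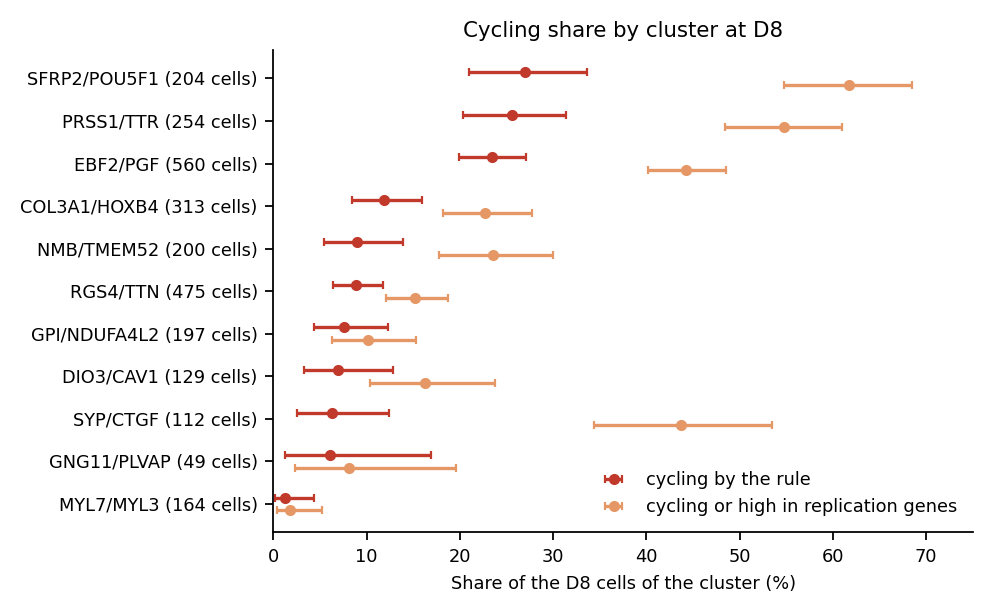
Percent of the D8 cells of each neighbour cluster (rows) that were cycling by the 6 genes, and percent that were cycling or high in replication genes, with exact binomial 95% intervals as bars. SFRP2/POU5F1, PRSS1/TTR and EBF2/PGF stand at 27.0%, 25.6% and 23.4% cycling, RGS4/TTN at 8.84% and MYL7/MYL3 at 1.22%, and the wider shares of the same clusters are 61.8%, 54.7%, 44.3%, 15.2% and 1.83%.

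Cycling cells also carried transcripts of their lineage, which the selecting genes did not use, although the assignment by neighbours did. Leading genes were compared with cycling cells assigned elsewhere, with 10 CPM added to both levels. All 10 leading genes of RGS4/TTN, of PRSS1/TTR and of SFRP2/POU5F1 were then 2-fold or more above that level. So were 8 of 10 in COL3A1/HOXB4 and 6 of 10 in EBF2/PGF. The median log2 ratio of cycling to other cells over the 10 leading genes of a cluster was -0.86 in EBF2/PGF, -0.22 in RGS4/TTN and 0.08 in PRSS1/TTR. Of the 10 genes, 8 were past 1.5-fold either way in EBF2/PGF, and 2 in each of RGS4/TTN and PRSS1/TTR.

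Cycling CM-like cells of the RGS4/TTN cluster had sarcomere transcripts. TTN, the titin spring of the sarcomere, had 1771 CPM (1682 to 1864) in the 42 cycling cells and 2105 CPM (2072 to 2139) in the 433 others. At 4000 UMIs per cell TTN was found in 100% of these cycling cells and in 96.5% of the others, against 15.4% of the cycling foregut endoderm-like cells, where free RNA can give UMIs. The median depth before thinning was 19441.5 UMIs in the cycling RGS4/TTN cells and 30804 in the cycling PRSS1/TTR cells. TNNT2, cardiac troponin T, had 599 CPM (547 to 654) against 791 (771 to 812), and TNNI1, the fetal troponin I, 1608 against 2342. MYL7 had 467 CPM (422 to 516) against 886 (864 to 908), a log2 ratio of -0.92 (-1.08 to -0.78). ACTC1, cardiac actin, lay the other way, with 748 CPM (690 to 809) in cycling and 443 (427 to 458) in other cells, a log2 ratio of 0.76 (0.63 to 0.88). Of the 17 sarcomere genes at 20 CPM or more in this cluster, 1 was higher and 3 were lower in cycling cells by 1.5-fold or more, against 14.2% and 3.92% of the 6349 genes measured, and their median log2 ratio was -0.10. NKX2-5 and MEF2C, transcription factors of the heart, had 181 and 468 CPM in cycling and 206 and 529 CPM in other cells.

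**Figure D3:**
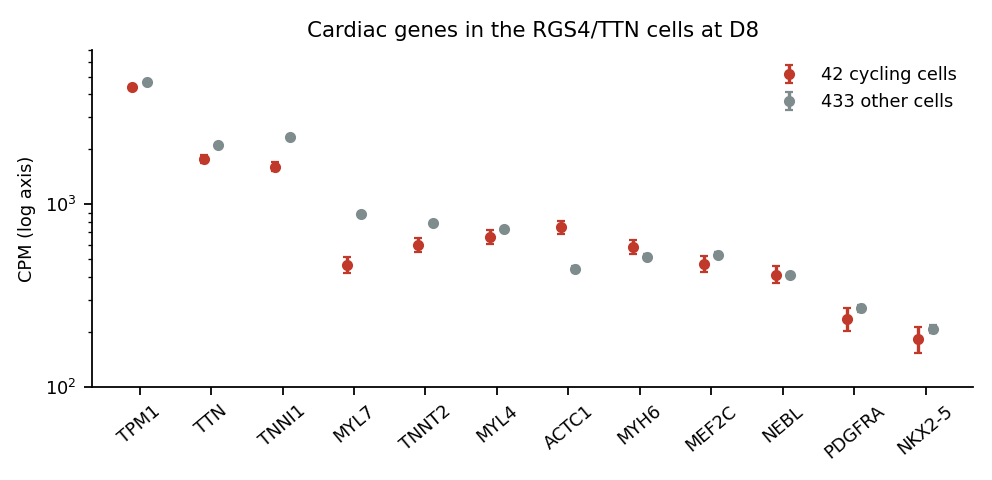
Levels of 12 cardiac genes (x axis) in CPM (log y axis) in 42 cycling and 433 other cells of the RGS4/TTN cluster, with exact Poisson 95% intervals as bars. TTN had 1771 CPM in cycling and 2105 CPM in other cells, and MYL7 had 467 and 886 CPM.

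In the EBF2/PGF cluster 3 of 7 measured progenitor genes were lower in cycling cells by 1.5-fold or more and 0 were higher. ISL1, the LIM factor of second heart field progenitors, had 142 CPM in cycling and 185 CPM in other cells, a log2 ratio of -0.38 (-0.55 to -0.22). FGF8, a secreted growth factor, had 34.4 and 52.3 CPM. CXCR4, a chemokine receptor, had 9.54 CPM (6.34 to 13.8) and 29.2 CPM (25.2 to 33.5). The 7 genes had a median log2 ratio of -0.38, and ISL1 itself did not pass 1.5-fold. Among all 6037 genes 3.21% were lower and 9.76% higher, with a median of 0.06. CCND2, a D-type cyclin, had 54.8 CPM in cycling and 105 CPM in other EBF2/PGF cells.

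In the foregut endoderm-like PRSS1/TTR cluster FOXA2, the endoderm factor, had 132 CPM (117 to 149) in cycling and 134 CPM (124 to 146) in other cells, so their intervals overlap. TTR, transthyretin, had 779 CPM against 630, and APOA1, an apolipoprotein, 385 against 253, a log2 ratio of 0.60 (0.47 to 0.74). Lower in cycling cells were targets of the YAP coactivator and genes of early stress response. ANKRD1 had 37.5 CPM (29.7 to 46.8) against 145 (134 to 156), CTGF 30.8 against 101, CYR61 44.8 against 111 and FOS 53.9 against 94.2. Of the 15 genes measured from the list of YAP targets and immediate early genes, 8 were lower by 1.5-fold or more and 0 were higher in this cluster, against 2.37% lower and 6.23% higher of 5783 genes. In the ectoderm cluster SFRP2/POU5F1 the count was 5 lower and 1 higher of 14, against 3.66% lower and 8.31% higher of 5549 genes. In EBF2/PGF it was 0 lower of 12, and in RGS4/TTN 1 lower and 2 higher of 14. Immediate early genes also respond to dissociation of tissue, and its part in these levels was not tested.

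The cycling surface ectoderm or pluripotent-like cells had more POU5F1, the OCT4 pluripotency factor, with 335 CPM (309 to 363) against 185 CPM (171 to 200) in the other cells of SFRP2/POU5F1, a log2 ratio of 0.85 (0.69 to 1.02). SOX2, which pluripotent and neural cells share, had 170 CPM (152 to 191) against 132 (120 to 145). TFAP2A, a factor of surface ectoderm, had 84.9 CPM (71.9 to 99.5) against 73.1 (64.3 to 82.7), and these intervals overlap. Of the 7 genes measured from the early mesoderm and pluripotency list, 2 were higher by 1.5-fold or more and 0 were lower, against 8.31% and 3.66% of all genes. The counterpart of this cluster among all cells had 8.38% higher and 3.5% lower of 5573 genes.

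The phases within the cycling cells were read from lists that share no gene with the selection. Along the score, summed replication transcripts and mitotic transcripts moved apart. The replication list had 8.70 UMIs per 10000 in cells with a score of 0, reached 35.4 in cells that scored 4 to under 8, and was 34.3, 27.7 and 22.0 in the bands of 8 to under 16, 16 to under 32, and 32 and more. The mitotic cyclins and kinases went from 3.40 at a score of 0 to 14.8 in the band of 4 to under 8 and then to 21.9, 33.4 and 58.3. The histone list was highest at 8 to under 16, with 42.9 UMIs per 10000, and the anaphase list at 32 and more, with 33.2. The bands held 770, 1094, 249, 160, 152, 108 and 124 cells from the lowest to the highest.

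Single genes of the lists peaked in different bands. CDC6, which loads the helicase in G1, went from 2.15 CPM at a score of 0 to 37.0 CPM at 4 to under 8 and 10.8 CPM at 32 and more. MCM5 had 41.8 CPM at 4 to under 8 and 15.0 at 32 and more, and PCNA 141 and 54.2. TYMS stayed level across these bands, with 222 CPM at 4 to under 8 and 213 at 32 and more, and MCM2 was highest at 8 to under 16, with 27.9 CPM. HIST1H4C, a histone H4 gene transcribed in S phase, went from 182 CPM at a score of 0 to 1898 CPM at 8 to under 16 and 1157 at 32 and more. PLK1 had 21.5 CPM at 4 to under 8 and 259 CPM at 32 and more, CCNB1 37.6 and 344, and KIF20A, a motor of cytokinesis, 11.6 and 106. CCNA2, cyclin A, which acts in both S and G2, had 56.4 and 305 CPM. The band of highest score was thus highest in these mitotic genes, and the band just under the limit was highest in CDC6, MCM5 and PCNA.

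**Figure D4:**
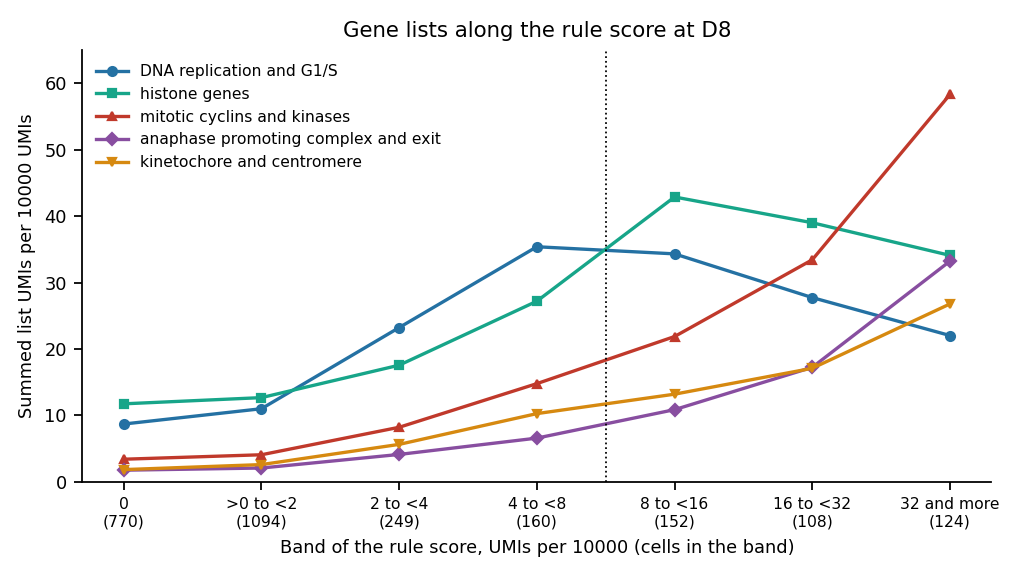
Summed UMIs per 10000 (y axis) of 5 cell cycle lists in 7 bands of the selecting score (x axis), with a dotted line at the limit of 8. The replication list is highest at 35.4 in the band below the limit, and the mitotic cyclins and kinases reach 58.3 in the highest band.

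Since the selecting genes belong to G2 and M, cells in S phase can lie under the limit. Of the cells with a score of 0, 5% had more than 15.3 UMIs per 10000 from the replication list. Above this level were 329 of the 384 cycling cells (85.7%) and 416 of the other cells (18.3%), so that 800 D8 cells (30.1%) were cycling or high in replication genes. By this wider count 61.8% of SFRP2/POU5F1, 54.7% of PRSS1/TTR and 44.3% of EBF2/PGF cells were included, against 15.2% of RGS4/TTN and 1.83% of MYL7/MYL3. SYP/CTGF changed most in rank, from 6.25% by the selecting genes to 43.8%, as 42 of its 105 other cells were high in replication genes. NMB/TMEM52 went from 9% to 23.5%. Other cells of SFRP2/POU5F1 and PRSS1/TTR also had more UMIs, with medians of 21524 and 21937 against 14917 in RGS4/TTN, and the part of depth in the wider count was not tested.

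For gene levels over all cycling cells, the other cells were weighted so that each cluster counted as it does among cycling cells. With the weights of the neighbour clusters, 346 of 5842 genes (5.92%) were higher and 43 (0.736%) lower in cycling cells by 1.5-fold or more, and the median log2 ratio of all genes was 0.04. With the weights of the clusters of all cells, in which 47 mostly replicating cells stand for the other cells of the cycle-led cluster, 277 of 5863 (4.72%) were higher and 57 (0.972%) lower. The settings shared 234 higher genes, which is 84.5% of the 277 and 67.6% of the 346, and 23 lower genes. Ratios below are to the other cells with neighbour weights, on the log2 scale with approximate 95% counting intervals, unless stated.

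The mitotic lists were higher almost throughout. All 22 mitotic cyclins and kinases measured were past 1.5-fold, with a median log2 ratio of 3.12, as were 20 of 20 kinetochore genes (2.79), 9 of 9 genes of the anaphase promoting complex and mitotic exit (2.74), 40 of 41 spindle and cytokinesis genes (2.81) and 10 of 11 condensin and cohesin genes (1.06). These genes are known to move with the selecting genes, so the counts describe the selection more than they test it. PLK1 had 140 CPM (132 to 148) against 6.43 CPM, a log2 ratio of 4.43 (4.20 to 4.67). CDK1, the kinase of mitotic entry, had 246 against 20.1 CPM (3.61), CCNB1 187 against 16.9 (3.47), and CDC20 223 against 19.6 (log2 ratio 3.5). CENPA, the histone variant of centromeres, had 76.9 against 3.88 CPM (4.30), and BIRC5, survivin of the chromosomal passenger complex, 320 against 43.3 (2.88). PTTG1, securin, had 807 against 123 CPM (2.72). SMC4, a condensin subunit, had 277 against 78.6 CPM (1.82). FOXM1, the transcription factor that works with MuvB on G2 genes, had 50.6 against 7.0 CPM (2.85).

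Replication genes depended on the comparison cells. With neighbour weights 26 of 41 were higher and 0 lower, with a median log2 ratio of 0.69, while with the weights of the clusters of all cells 1 was higher and 7 lower, with a median of -0.18, and without weights 33 of 41 were higher (median 1.09). RRM2, a subunit of ribonucleotide reductase, had 48.3 CPM against 17.3 (1.48, and 0.20 with the weights of the clusters of all cells). TYMS had 221 against 124 CPM (0.83, and 0.37). PCNA had 85.9 against 68.6 CPM (0.32, and -0.57), MCM5 22.3 against 24.6 (-0.14, and -1.0), and UNG, the uracil glycosylase of G1/S, 27.3 against 38.0 (-0.47, and -1.06). No direction is therefore given for PCNA, and UNG, MCM5 and PCNA lay below TYMS and RRM2 under both weights. The histone list was higher in 8 of 10 genes (1.53), with HIST1H4C at 1553 against 383 CPM (2.02, and 0.94) and H2AFX at 139 against 24.6 CPM (2.49). HIST1H2BK (-0.24) and HIST1H2AC (-0.35), which can be made outside S phase, had higher CPM in other cells. Histone genes share sequence, so counts of single copies are uncertain.

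**Figure D5:**
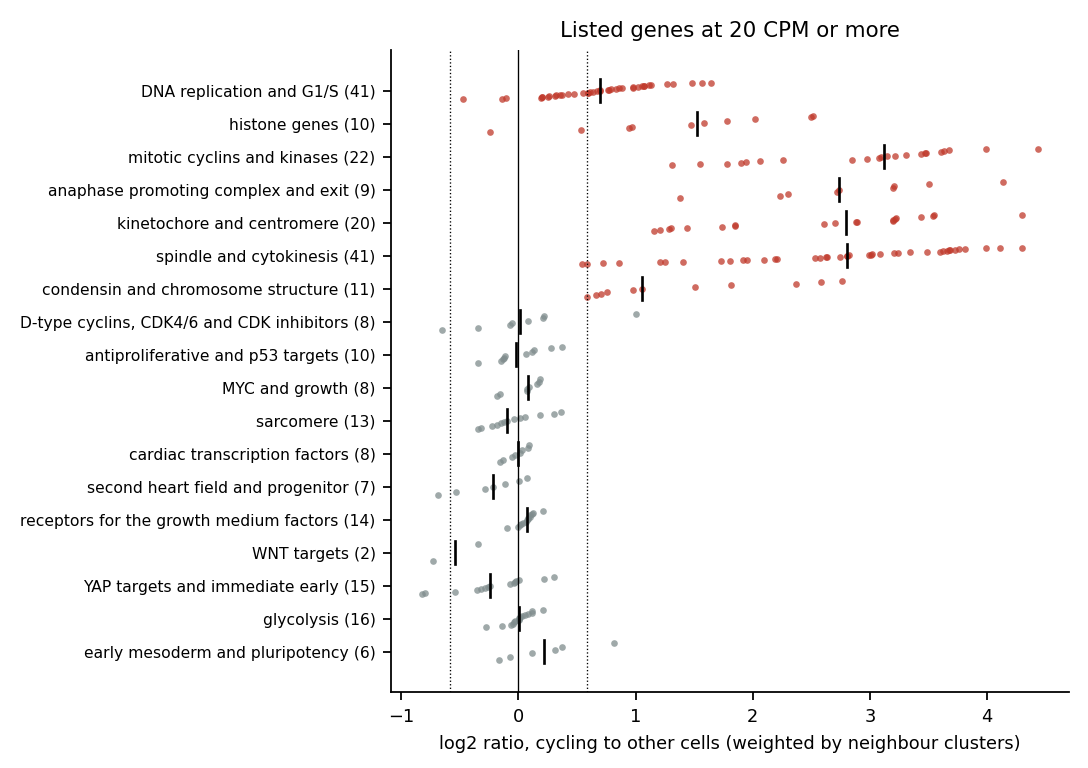
Log2 ratio of cycling to other D8 cells with neighbour weights (x axis) for each listed gene at 20 CPM or more (points), by list (rows), with a black bar at each list's median and dotted lines at 1.5-fold. Medians are 3.12 for mitotic cyclins and kinases, 0.69 for replication genes and -0.10 for sarcomere genes.

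Replication genes also differed by lineage in how far cycling cells stood above the others of their cluster. In RGS4/TTN 34 of 35 measured replication genes were higher by 1.5-fold or more (median log2 ratio 1.41), in COL3A1/HOXB4 29 of 36 (1.41) and in EBF2/PGF 37 of 48 (0.97). In PRSS1/TTR it was 8 of 39 (0.34) and in SFRP2/POU5F1 7 of 40 (0.16). The background of higher genes was 14.2%, 16.5%, 9.76%, 6.23% and 8.31% in the same order, with 5.01% of 6270 genes lower in COL3A1/HOXB4. The other cells of PRSS1/TTR and SFRP2/POU5F1 had a median of 12.5 and 14.9 UMIs per 10000 from the list, against 7.95 in RGS4/TTN, 9.05 in COL3A1/HOXB4 and 11.3 in EBF2/PGF. The difference between lineages was not tested, and RGS4/TTN and COL3A1/HOXB4 have the fewest cycling cells of the 5. The mitotic cyclins and kinases were higher in 22 of 22 genes in all of these clusters except SFRP2/POU5F1 (20 of 21).

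The upstream control of the cycle differed less. Of 8 measured D-type cyclins, their kinases and inhibitors, 1 was higher and 1 lower by 1.5-fold or more, with a median log2 ratio of 0.01. CCND2 had 53.3 CPM (log2 ratio -0.66, -0.80 to -0.51) against 84.1, and CCND1, cyclin D1, 73.0 against 92.7 (-0.34). CDK4, the kinase they activate, had 170 against 161 CPM (0.08, -0.01 to 0.16), an interval that holds 0. CDKN1B, the p27 inhibitor, was the higher gene, with 41.4 against 20.7 CPM (1.00, 0.82 to 1.19). In RGS4/TTN cells CDKN1B had 69.0 CPM (52.2 to 89.3) in cycling and 27.4 CPM (23.7 to 31.6) in other cells. CDKN2D, the p19 inhibitor of CDK4 and CDK6, was below 20 CPM over all D8 cells, and had 29.0 CPM (18.6 to 43.2) in cycling and 6.58 (4.84 to 8.75) in other RGS4/TTN cells from 24 and 47 UMIs. CDKN1A, the p21 inhibitor, had 79.6 against 68.8 CPM (0.21). Of 10 antiproliferative genes and p53 targets measured, 0 were past 1.5-fold either way, with MDM2 at 0.37 and BTG2 at -0.34.

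Lists of metabolism, growth and signalling were close to all genes. Of 16 glycolysis genes 0 were past 1.5-fold (median log2 ratio 0.01), as were 0 of 8 MYC and growth genes (0.08), 0 of 14 receptors for the factors of the growth medium (0.08), 0 of 8 cardiac transcription factors (-0.01) and 0 of 13 sarcomere genes (-0.10). Without weights 13 of 16 sarcomere genes were lower, with a median of -1.51, against 3.03% lower and 7.34% higher of all 5943 genes, and CM-like cells made up 11.5% of cycling and 26.2% of other cells by their neighbours. Of 15 YAP targets and immediate early genes 2 were lower, ANKRD1 at 47.6 against 84.3 CPM (-0.82) and CTGF at 53.7 against 93.2 CPM (-0.79). DKK1, a secreted WNT antagonist that WNT signalling induces, had 31.3 against 52.1 CPM (-0.73). POU5F1 was the 1 pluripotency gene of 6 past the limit, with 67.4 against 38.2 CPM (0.82).

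Outside the lists, the genes with the largest ratios were taken by a fixed rule of size. With the weights of the clusters of all cells, by which these genes were chosen, PIF1, a DNA helicase, had 86.6 against 4.18 CPM (log2 ratio 4.27), PRR11 68.5 against 10.7 CPM (2.64) and ARL6IP1, a protein of the endoplasmic reticulum, 487 against 97.0 CPM (2.33). CDCA2, a chromatin phosphatase regulator of mitotic exit, had 65.5 against 15.3 CPM (2.07). The others of the 10 were RNF26, CEP70, TUBA1C, BRD8, LBR and MZT1, with ratios of 1.25 to 1.66. TUBA1C is nearly identical to other tubulin genes and its count is uncertain. With neighbour weights C21orf58 (1.95), DIAPH3 (1.90), CDCA5 (1.86) and UBE2T (1.66) took places among the 10. Lowest were IGFBP5, which binds insulin-like growth factors, with 28.8 against 77.7 CPM (-1.43), and MT1H, a metallothionein with close copies, with 45.4 against 88.9 CPM (-0.97). ANKRD1, CTGF, S100A4, GAL, CCND2, PGF and MLLT11 followed with ratios of -0.91 to -0.51. CDCA7, at -0.66 in this comparison, had 0.04 with neighbour weights and 0.18 without weights. Within foregut endoderm-like cells of the clustering of all cells, where 6.23% of 5776 genes were higher and 2.3% lower, DIO3, a deiodinase that inactivates thyroid hormone, had 21.5 CPM in cycling cells (-2.04), and REEP4, which clears membrane from mitotic chromosomes, 50.4 against 13.9 CPM (1.85).

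By the same rule the cycling share was 435 of 3585 cells at D14 (12.1%, 11.1 to 13.2) and 154 of 1946 at D21 (7.91%, 6.75 to 9.20). The median score of cycling cells was 23.7 at D14 and 24.2 at D21 against 19.7 at D8, and their median depth 17343 and 16881 UMIs against 22750.5. With 1 library a day, day and library cannot be told apart.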

How the data were processed

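The authors deposited a single table of raw UMI counts of 32738 genes in 17327 barcodes, without normalization, and each column name gave its day. The submitters' processing notes name Cell Ranger, Seurat 3.2.1 and the hg19 build, and the filter on cells is that of the study's methods. The kept D8 cells held 46767738 UMIs. PECAM1 and UHRF1 are not in the table. The values of 1 listed gene are not reported here.

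D8 counts were log-normalized and clustered in Seurat 5.3.0 (R 4.3.3, Matrix 1.6.5) on 20 principal components at a resolution of 0.8. Of 2000 variable genes, 1859 remained without the cell cycle lists. A cluster took the name of a class with at least 3 markers at 2-fold or more over the remaining cells (10 CPM added to each level) and a lead of 2 markers. Levels are summed counts per 1000000 UMIs with exact Poisson intervals, shares have exact Clopper-Pearson 95% intervals, and intervals of weighted ratios are approximate. Genes at 20 CPM or more in either group were compared. The planned comparison weighted the other cells by the clusters of all cells. Its cycle-led cluster was represented by 47 other cells, so the weighting by neighbour clusters was added after the data were seen, as was the wider count with replication genes.

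Named genes were the selecting genes, the list genes, and, outside the cell cycle lists, the 10 with the largest ratio each way at 50 CPM or more (5 within foregut endoderm-like cells), with 1 count added. The members, the lists and the rules were chosen with earlier results of these data known. Scrublet in scanpy 1.11.5 called 9 D8 cells (0.339%) doublets, too few for a caller that has worked, and the cells were kept. Promoter letters came from a RefSeq table of GRCh38.p14, not the build of the counts, with the first listed start of each gene. Of 184 cell cycle list genes, 155 were matched, and over all lists 21 genes were matched by an older symbol. TPX2 and UBE2C had no entry. For 119 of the 155, the 30 bases after the start lay in a transcript of the gene on the same strand. On simulated data for the comparison with neighbour weights, with 200 of 5416 genes changed, 95.0% of intervals held the true ratio and the estimates of 100% of the changed genes came within 0.5 (log2) of it. The simulated counts had Poisson error only, so they check the calculation. They cannot check spread between cells, doublets or the assignment to clusters. Other work used Python 3.11.15, numpy 2.4.6, pandas 2.3.3, scipy 1.17.1, matplotlib 3.10.9 and edgeR 4.0.16 (TMM factors). Alternatives tried were other score limits, leaving out each selecting gene, other cluster settings, other weights, filters, folds and scalings. Cells with a score of 0 as the comparison and a shorter promoter window were also tried.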

Additional observations from a re-analysis of the deposited data

Results flagged for a closer look

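Barcodes that the filter on genes and mitochondrial share left out also carried the selecting genes. Of the 906 D8 barcodes outside the filter, 232 scored 8 or more (25.6%, exact binomial interval 22.8 to 28.6). The share is taken from barcodes that entered no comparison. Of the 232, 218 had 2000 genes or fewer and their median was 1390 UMIs, so that 101 reached the limit with only 1 or 2 UMIs of the selecting genes, while 58 had 8 or more. Of the 17 D8 barcodes with 7500 genes or more, 11 scored 8 or more.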

How the results depend on the processing

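With 1 library there is no replicate error, and the values depend on where the score is cut and how cells are clustered. No paired analysis was possible because each day has 1 library. The cycling share of 14.5% became 17.2% with a limit of 6, 10.9% with 12 and 8.73% with 16, and 12.8%, 12.6%, 13.1% and 12.5% without TOP2A, CENPF, TPX2 or UBE2C. Of cycling cells, 4.69% were CM-like, and 0.521% at resolution 0.4, 1.56% with cycle genes kept and 11.5% with clusters of the other cells only. The cycling share of CM-like cells was 1.46%, 1.07% and 6.89% in these settings, and 1.58% with a limit of 16. The CM-like class itself changed in size, from 571 cells to 137 at resolution 0.4, 562 with cycle genes kept and 639 with clusters of the other cells only. The values at resolution 0.4 therefore cover far fewer CM-like cells. Foregut and ectoderm shares were 16.3% and 15.8% with a limit of 16. The cluster highest in EBF2 held 7.29% of cycling cells and had 5.97% cycling, and these became 3.91% and 3.88% at resolution 1.2, 3.91% and 3.33% with more variable genes, 1.56% and 1.44% with cycle genes kept, 34.1% and 23.4% with clusters of the other cells only, and 4.31% and 2.13% with a limit of 16. In the clusters of the other cells, the wider count, added after the data were seen, moved the cycling share of CM-like cells from 6.89% to 11.7%, of foregut cells from 25.6% to 54.7%, of ectoderm cells from 27.0% to 61.8% and of the EBF2 cluster from 23.4% to 44.3%. Genes higher and lower (277 and 57) became 436 and 180 without weights, 2287 and 1962 without a filter on low genes, 148 and 11 at 50 CPM, 139 and 8 at 2-fold, and 598 and 216 against cells with a score of 0, and 104 were lower with a limit of 16. The higher genes were 82.9% of those past the fold, and 70.8%, 53.8%, 93.1% and 94.6% in the first 4 of these. CDCA7 changed sign to 0.18 without weights, 1.01 against cells with a score of 0 and 0.044 with neighbour weights, GAL to 0.24 against cells with a score of 0, and the histone list to a median of -0.33 with a limit of 16. The cause was not tested. TMM and median-of-ratios scaling each shifted log2 ratios by 0.03.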
